A study of Mus musculus with 8 samples.

Results

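Muscle progenitor cells of the mouse limb bud at embryonic day 11.5 (E11.5) were examined in 2 single-cell libraries of whole limbs, whole 1 and whole 2. The cells were chosen by their transcripts, counted as unique molecular identifiers (UMIs), each of which marks 1 captured RNA molecule. A cell was a member if it had at least 3000 UMIs, at most 10% mitochondrial UMIs, at least 1 UMI in 2 or more of *Pax3*, *Lbx1*, *Msc*, *Myf5* and *Myod1*, and 0 UMIs of *Myog*. There were 385 members among 11146 filtered cells, 199 of 5464 in whole 1 and 186 of 5682 in whole 2. The share of members was 3.64% in whole 1 (exact binomial 95% interval 3.16% to 4.17%) and 3.27% in whole 2 (2.83% to 3.77%), with a mean of 3.46% ± 0.261 (SD, n = 2). The intervals cover counting error only. All 8 libraries of the study together held 53085 filtered cells.

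Both libraries were made from forelimbs of C57BL/6J embryos. Their labels name the alleles as *Hic1* and tdTomato, and the labels of the sorted libraries spell out the genotype as Hic1 CreERT2/CreERT2 with Rosa26 LSLtdTomato/tdTomato. The dams had received 7.5 mg of tamoxifen by gavage at embryonic day 10, which lets the CreERT2 recombinase, driven from the *Hic1* locus, switch on tdTomato in *Hic1*-expressing cells and their descendants. Members and the cells they were compared with came from the same limbs and shared alleles, treatment and age. The labels give the source as mesenchymal progenitors and describe the libraries as holding reporter-positive and reporter-negative cells. The methods of the study give them as total lineage-negative cells, which leaves out cells with blood, macrophage or endothelial surface proteins. Limbs were pooled before dissociation, and no source states whether whole 1 and whole 2 came from separate embryos. The p-values below rest on how far the differences between groups of cells varied from 1 of these 2 libraries to the other. That variation may be technical, and the test estimates it in part from all genes together.

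Limb muscle does not arise from the limb bud itself. Its progenitors leave the ventrolateral lip of the dermomyotome of the somites, delaminate under the receptor tyrosine kinase MET and its ligand HGF, and migrate into the limb mesenchyme as cycling cells that carry the transcription factors PAX3 and LBX1. In the limb they switch on the myogenic determination factors MYF5 and MYOD1, and MYOG then accompanies exit from the cell cycle and the start of contractile gene expression.

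The deposited matrices held 51674380 UMIs in whole 1 and 51505671 in whole 2. The members were deeper than the other cells, with a median of 13174 and 12369 UMIs per cell against 8760 and 8485.5, and their median mitochondrial share was 2.90% and 2.74% against 2.38% and 2.21%. Values are given for whole 1 first and whole 2 next throughout. With every cell thinned to 3000 UMIs, the rule was met by 116 and 91 cells (2.12% and 1.60%), of which 94 and 80 were members at full depth. The libraries shared 43 cell barcodes, 0.787% of the cells of whole 1, and 1 member in each library had such a barcode. Doublets could not be called, and 15 and 20 members (7.54% and 10.8%) were among the 5% of cells of their library with the highest doublet scores.

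The 5 markers of the rule and *Myog* lie on 4 chromosomes of GRCm38, the assembly that mm10 names. *Pax3*, a paired-box factor of the dermomyotome, spans chr1:78101267-78197134 on the minus strand. *Lbx1*, a homeobox factor of migrating muscle precursors, spans chr19:45232684-45235812, and *Msc*, a basic helix-loop-helix factor of muscle progenitors, chr1:14753346-14755992, both on the minus strand. The determination factor *Myf5* spans chr10:107482908-107486134 on the minus strand and *Myod1* chr7:46376474-46379099 on the plus strand. *Myog* spans chr1:134289989-134292548 on the plus strand.

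The absence of *Myog* separates the members from the muscle cells most like them, and the sequence before its start is shown for that reason. It comprises the 250 bases before the RefSeq start of *Myog*, chr1:134289754-134290003 of GRCm38.p6 on the plus strand, read 5′ to 3′. The GENCODE span given above starts further upstream, at 134289989, so the last bases of the window lie within it. Capitals mark the MEF3 motif TCAGGTT, an element of early muscle gene promoters, and 2 E-boxes (CANNTG), the motif of MYF5, MYOD1 and MYOG. No other motif was searched for, so sites of other myogenic factors are not marked.
Myog promoter: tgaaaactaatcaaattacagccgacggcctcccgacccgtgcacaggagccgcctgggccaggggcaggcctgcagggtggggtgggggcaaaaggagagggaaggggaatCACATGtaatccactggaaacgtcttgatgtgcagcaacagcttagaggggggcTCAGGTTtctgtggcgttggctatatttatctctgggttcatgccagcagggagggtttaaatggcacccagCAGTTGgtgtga
The MEF3 match lies 84 to 78 bases before the RefSeq start, and the E-boxes CACATG and CAGTTG lie 138 to 133 and 12 to 7 bases before it. Both strands were searched and no match overlaps another. The same MEF3 letters are found in 1147 of 32851 promoters of that length (3.49%) and an E-box in 66.2%. These matches describe the sequence and do not show binding.

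The levels of these 6 genes chose the cells and are a description with no test. Levels are in CPM, the UMIs of a gene per 1000000 UMIs summed over the cells of a group in a library. *Pax3* was at 234 and 243 CPM in the members and at 7.80 and 6.36 CPM in the other cells. It had a UMI in 88.4% and 93.0% of members, and *Lbx1* in 76.9% and 82.3%. *Myf5* had a UMI in 55.3% and 46.2% of members and *Myod1* in 60.8% and 59.7%, whereas *Msc* was seen in 21.1% and 23.1%. A slim majority of members in each library held *Pax3* and *Lbx1* beside a determination factor. The set *Pax3*, *Lbx1* and *Myod1* was the most frequent, in 32 and 37 cells, and *Pax3* with *Lbx1* alone was found in 25 and 33. None of the 6 genes had a UMI in the 16 and 21 cells of an epithelial cluster, whose median depth was 8007.5 and 7134 UMIs. These cells were too few to limit the free RNA of a gene to less than the 7.80 and 6.36 CPM of *Pax3* in the other cells. No level of free RNA is read from them.

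**Figure D1:**
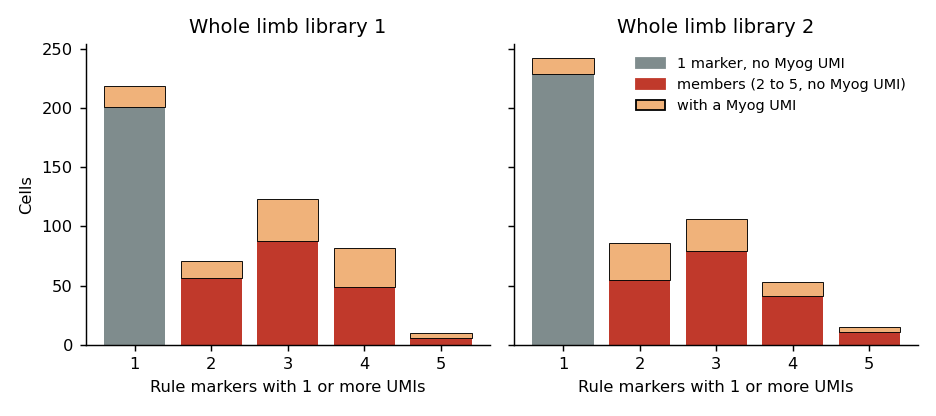
Number of cells (vertical axis) by the number of rule markers with 1 or more UMIs (horizontal axis) in whole limb library 1 (left) and library 2 (right). Red bars are the members (56, 88, 49 and 6 cells with 2, 3, 4 and 5 markers in library 1, and 55, 79, 41 and 11 in library 2), grey bars the cells with 1 marker and no *Myog* UMI (201 and 229), and orange stacks the cells with a *Myog* UMI.

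The rule divided the cells between 1 and 2 markers, and the genes outside the rule were read on both sides of that limit as a description. *Met*, the receptor for HGF, was at 5.50 and 6.29 CPM in the 201 and 229 cells with 1 marker and no *Myog* UMI. In the members with exactly 2 markers it was at 66.4 and 44.3 CPM, and in members with 3 or more at 56.1 and 60.4 CPM. *Prrx1*, a homeobox gene of limb mesenchyme, ran the other way, with 495 and 555 CPM at 1 marker, 130 and 147 CPM at 2, and 113 and 121 CPM at 3 or more. On these genes members just inside the limit lay nearer to those further inside than to the cells just outside it. They still held more of some mesenchyme transcripts than members further inside. *Lhx9*, a gene of limb mesenchyme, was at 232 and 247 CPM at 1 marker, 36.2 and 36.4 CPM at 2, and 17.9 and 15.4 CPM at 3 or more.

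The cells of both libraries were also clustered with the 6 genes of the rule left out. A cluster of 595 cells, 1 of 20, held 375 of the 385 members (97.4%) and 148 of the 161 *Myog*-positive muscle cells. It was left unnamed because its leading genes by fold included haemoglobin genes. Within the cluster, haemoglobin was concentrated in 2 cells of each library that were not members, and in the members it was seen as 10 and 11 UMIs in all, never more than 1 in a cell. Of the cells without *Myog*, the cluster took 17 of 10015 with 0 markers, 37 of 430 with 1 marker, 102 of 111 with 2, 166 of 167 with 3, 90 of 90 with 4 and 17 of 17 with 5. The 7 and 3 members outside the cluster had 0 UMIs of *Met*, 348 and 329 CPM of *Prrx1* and 207 and 183 CPM of *Lhx9*. Most of them had exactly 2 markers, so they enter the levels given above for members with 2 markers. The 16 and 21 cells with 1 marker inside it had 57.8 and 56.8 CPM of *Met*.

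UMIs were then summed over the members and over all other cells of each library, and the genes outside the rule were tested with edgeR's quasi-likelihood test with the library as a block. Of 13559 genes tested, 4311 (31.8%) passed a Benjamini-Hochberg adjusted p of 0.05, 2360 (17.4%) higher and 1951 (14.4%) lower in the members. These shares are the background against which the counts of gene lists below are read. The TMM scaling of the test places log2 fold changes 0.15 above the log2 ratio of the CPM values. The median over all genes was -0.03 with TMM scaling and -0.20 when libraries were scaled to their total UMIs alone, and with total UMIs alone 1501 genes were called higher and 3741 lower. That setting moved the share of higher calls from 54.7% to 28.6% and gave 103 calls the opposite sign, so small differences depend on it. The lists were compiled from known roles, with earlier results of these data in view.

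The label of the cells was checked on 10 muscle progenitor markers that the rule did not use, of which 9 were higher in the members and none lower. The median log2 fold change over the 10 was 4.08. *Met* was at 58.7 and 56.2 CPM in the members and at 2.61 and 2.35 CPM in the other cells, a log2 fold change of 4.69 ± 0.16 (SE) with an adjusted p of 2.36e-35. *Eya1* and *Eya2*, transcriptional cofactors of muscle progenitors, were at 69.0 and 78.0 CPM and at 30.1 and 42.3 CPM in the members, against 3.49 and 3.56 CPM and 1.77 and 1.47 CPM elsewhere. For each of these genes both libraries of members lay far above both libraries of other cells. *Pax7*, which marks the progenitors that later become satellite cells, was low in the members (6.10 and 6.29 CPM) but lower in the other cells (0.308 and 0.450 CPM, log2 fold change 4.19 ± 0.48, adjusted p = 6.51e-11). *Six4*, a homeobox gene, differed little (67.8 and 74.2 against 56.7 and 62.6 CPM, log2 fold change 0.42 ± 0.09). *Meox2*, a homeobox gene of somite and limb muscle, was the exception, with 38.9 and 50.3 CPM in the members and 56.8 and 53.4 CPM elsewhere (adjusted p = 0.292). With total UMIs alone *Meox2* was called lower, and the other 9 stayed higher. With all cells thinned to 3000 UMIs 7 of the 10 were higher and 1 lower.

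**Figure D2:**
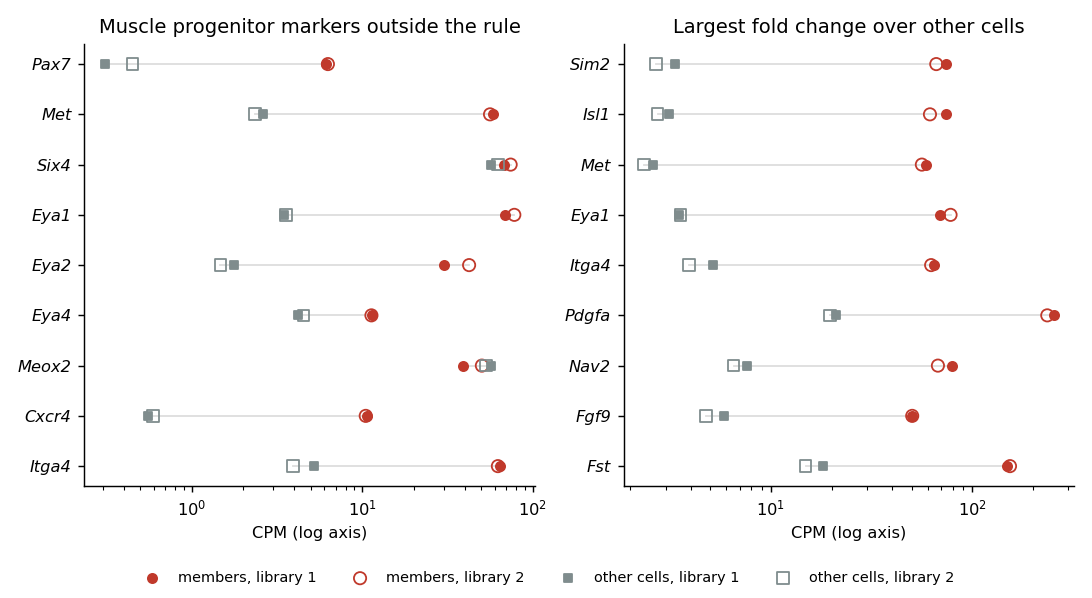
CPM on a log axis for muscle progenitor markers outside the rule (left) and genes among those with the largest positive log2 fold change at 50 CPM or more (right). Red circles are members and grey squares other cells, filled for library 1 and open for library 2. For every gene but *Meox2* both members' symbols lie right of both squares, narrowly for *Six4*, as with *Met* at 58.7 and 56.2 CPM against 2.61 and 2.35 CPM.

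Of 17 premyogenic transcription factors tested, 12 were higher in the members and 2 lower, with a median log2 fold change of 2.21. *Eya1* is also among the markers above, as are *Met* and *Itga4* of later lists, so the counts of these lists are not separate. *Pitx3*, a homeobox gene, was at 14.1 and 14.7 CPM in the members and at 1.40 and 1.02 CPM in the other cells (log2 fold change 3.73 ± 0.29, adjusted p = 3.35e-17). *Tcf15*, a basic helix-loop-helix factor of somites, was at 154 and 139 CPM against 33.6 and 37.7 CPM. *Dmrt2*, a dermomyotome gene, stood at 4.95 and 4.61 CPM against 0.616 and 0.593 CPM, and *Sim1*, a marker of the ventrolateral dermomyotome, at 3.81 and 3.35 CPM against 0.185 and 0.123 CPM. All of these were higher in both libraries. The 2 that were lower were *Mef2c*, a partner of MYOG in differentiation (6.10 and 4.61 against 19.0 and 17.0 CPM), and *Barx2* (1.14 and 0.419 against 3.04 and 3.39 CPM), a homeobox gene. *Mef2a* and *Mef2d* were not called. With total UMIs alone 12 were higher and 3 lower, and after thinning 8 and 2 of 16. The *Myog*-positive cells described below shared these transcripts, with a summed level of 1154 and 1150 CPM against 897 and 952 CPM in the members, and against them 1 of 14 tested was higher in the members and 4 were lower.

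The genes of largest fold change at 50 CPM or more were led by *Sim2*, a basic helix-loop-helix factor, at 74.3 and 66.2 CPM in the members and 3.35 and 2.68 CPM elsewhere (log2 fold change 4.71 ± 0.14, adjusted p = 1.30e-37). *Isl1*, a LIM homeobox gene known from motor neurons, heart and pharyngeal muscle progenitors, was at 74.3 and 61.6 CPM against 3.12 and 2.74 CPM (4.70 ± 0.14). *Pdgfa*, a ligand of PDGFRA, was at 254 and 236 CPM against 21.1 and 19.6 CPM, and *Fgf9*, a secreted growth factor, at 50.3 and 50.3 CPM against 5.83 and 4.74 CPM. *Nav2* was at 79.7 and 67.5 CPM against 7.64 and 6.52 CPM. *Pdgfra*, which encodes the receptor for PDGFA, was lower in the members (15.6 and 30.2 against 116 and 141 CPM, log2 fold change -2.34 ± 0.11).

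Receptors with a role in the delamination and guidance of muscle progenitors went in both directions, with 6 of 13 higher and 5 lower, or 5 and 5 with total UMIs alone. Beside *Met*, *Cxcr4*, the receptor for CXCL12 on migrating progenitors, was at 10.7 and 10.5 CPM in the members and 0.555 and 0.593 CPM elsewhere (log2 fold change 4.36 ± 0.37). *Ackr3*, an atypical CXCL12 receptor, *Epha3*, an ephrin receptor, and *Plxna2*, a semaphorin coreceptor, were higher as well, with log2 fold changes of 1.08, 1.82 and 2.67. *Gab1*, the adaptor that carries the MET signal, was at 16.8 and 18.4 CPM against 13.3 and 15.6 CPM, a call (adjusted p = 0.0384) that was lost with total UMIs alone (adjusted p = 0.189) and without the block (0.0912). After thinning to 3000 UMIs the log2 fold change of *Gab1* was -0.024. *Nrp1*, a semaphorin and VEGF receptor, was at 7.62 and 5.87 CPM against 66.5 and 59.6 CPM, and *Epha4* was at 38.1 and 26.8 CPM against 174 and 176 CPM (log2 fold changes -3.06 ± 0.17 and -2.26 ± 0.09). *Epha7*, *Robo2* and *Cxadr* were lower too.

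The ligands of these receptors lay mostly in the other cells, with 8 of 11 lower in the members and 3 higher. *Hgf*, the ligand of MET, had 0 UMIs in all 385 members and 431 UMIs in the other cells, at 4.64 and 4.19 CPM, so it was at least 7.37-fold lower in the members, taking a floor of 3 UMIs over both libraries. *Cxcl12*, the ligand of CXCR4, was at 6.10 and 7.96 CPM in the members and 24.6 and 25.9 CPM elsewhere (log2 fold change -1.69 ± 0.21, adjusted p = 4.66e-10). For these ligand and receptor pairs the receptor was the more abundant transcript in the members relative to the other cells, and the ligand the less abundant. The 3 ligands called higher, *Efna5*, *Sema3c* and *Slit2*, had log2 fold changes of 0.29 to 0.62, and with total UMIs alone 1 of the 11 was called higher and 8 lower.

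Limb mesenchyme genes were lower in the members almost throughout, with 23 of 25 lower, 1 higher and a median log2 fold change of -2.10. *Lhx9* and *Lhx2*, LIM homeobox genes of distal limb mesenchyme, were at 22.5 and 21.0 CPM and at 12.96 and 9.64 CPM in the members, against 216 and 220 CPM and 106 and 109 CPM. *Tbx5*, the forelimb T-box gene, was at 9.91 and 10.5 CPM against 97.7 and 99.9 CPM, and *Shox2*, a gene of proximal limb skeletal patterning, at 42.7 and 43.6 CPM against 349 and 343 CPM (log2 fold change -2.84 ± 0.07, adjusted p = 5.62e-42). *Prrx1* was at 117 and 128 CPM in the members and 676 and 637 CPM elsewhere. The epithelial cluster, another cell type that should lack it, had 15.5 and 17.7 CPM of *Prrx1*, below the members. Its 16 and 21 cells were too few to give a level of free RNA. Whether the *Prrx1* UMIs of the members are their own was not tested. *Snai1*, an epithelial to mesenchymal transition factor, was the gene called higher, at 288 and 315 CPM against 234 and 244 CPM (0.50 ± 0.04). *Fbn2* was not called. Among the other genes of largest negative fold change were *Cped1* (9.91 and 8.38 against 82.7 and 82.2 CPM), *Mab21l2* (22.1 and 25.98 against 204 and 213 CPM) and *Pf4*, a chemokine of platelets and macrophages (0.762 and 1.26 against 47.1 and 54.9 CPM). *Pf4* was the leading gene of a cluster of 13 cells without members, so its level elsewhere is not that of the limb at large.

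Markers of other cell types were summed over their lists in the members and in the other cells. The 8 endothelial markers came to 17.5 and 3.35 CPM in the members, with 5 of the 8 at 0 in whole 2, and to 21.7 and 26.9 CPM elsewhere. The 7 immune markers came to 1.14 and 1.26 CPM, the 4 sclerotome markers to 2.67 and 4.19 CPM and the 10 epithelial markers to 10.3 and 8.80 CPM. Each of these sums was below that of the other cells in both libraries. Without the 7 and 3 members outside the main cluster, 7 of 8 endothelial markers were called lower. The 9 chondrocyte markers came to 162 and 159 CPM against 433 and 461 CPM, and all 7 that were tested were lower. Lower calls were also made for 3 of 7 epithelial, 2 of 7 endothelial, 6 of 7 erythroid, 1 of 1 immune, 2 of 7 neuron, 3 of 4 tendon, 2 of 2 sclerotome and 1 of 5 neural crest and glia markers tested. Haemoglobin passed 1% of the UMIs in only 2 and 3 of the other cells, so the erythroid calls rest on few cells. Among the lists of epithelial, endothelial, erythroid, immune, neural, chondrocyte, tendon and sclerotome genes, *Erbb3* alone was called higher in the members (21.0 and 21.4 against 3.04 and 3.41 CPM, 2.88 ± 0.21). It is a receptor of neural crest and also of dermomyotome cells. The 7 neural crest and glia markers, *Erbb3* included, summed to 27.4 and 25.1 CPM in the members and 46.9 and 37.4 CPM elsewhere. Of the 7, 3 and 2 had 0 UMIs in the members.

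Of 4 genes of the *Hic1* lineage tested, none was higher and 2 were lower in the members, *Dcn* (0.762 and 0.838 against 5.38 and 4.76 CPM) and *Aldh1a2*, or 3 with total UMIs alone. The list summed to 6.48 and 4.19 CPM in the members and 14.7 and 15.6 CPM elsewhere. *Hic1* itself had 0 UMIs in the 385 members and was at 0.739 and 0.777 CPM in the other cells, which with a floor of 3 UMIs over both libraries gives at least a 1.27-fold lower level in the members, and it was not called (adjusted p = 0.0815). The tdTomato transcript had 12 and 5 UMIs in the members, 4.57 and 2.10 CPM, against 3.84 and 4.31 CPM in the other cells, which did not differ beyond the spread between libraries (log2 fold change -0.10 ± 0.38, adjusted p = 0.879). It had a UMI in 6.03% and 2.69% of members. The members were deeper than the other cells and their tdTomato level did not differ, so these are not read as shares of reporter-positive cells.

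**Figure D3:**
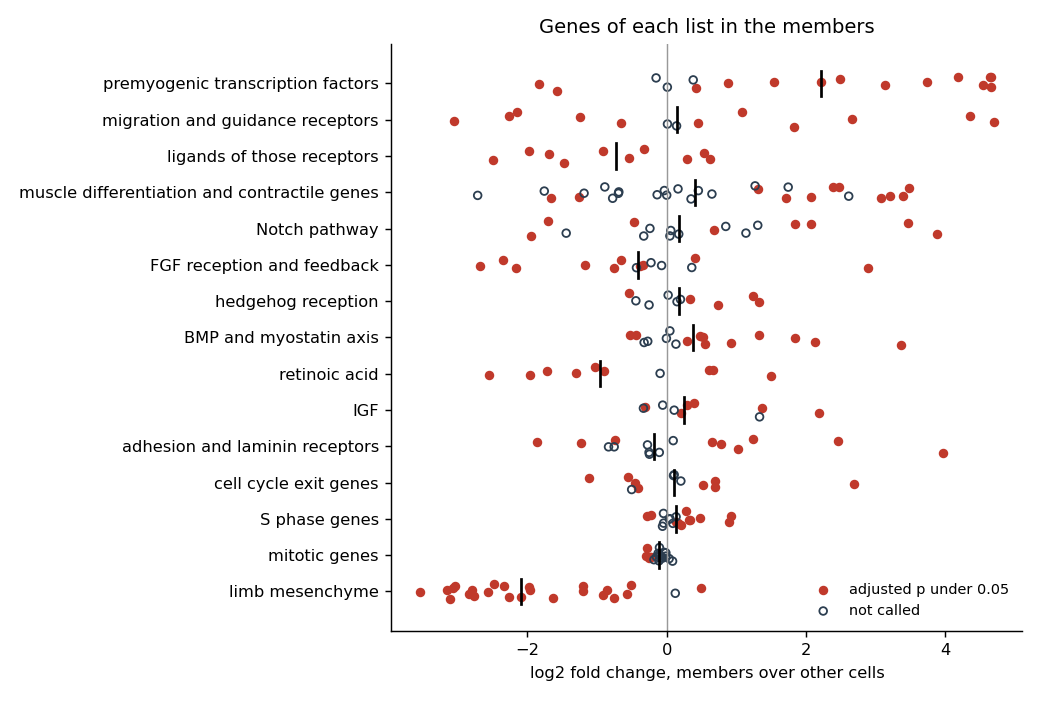
Log2 fold change of members over other cells (horizontal axis) for each tested gene of 15 lists (rows). Filled red points passed an adjusted p of 0.05, open points did not, and the black bar is the median of the genes drawn. Genes with 0 UMIs in either group are not drawn. Premyogenic transcription factors lie mostly to the right and limb mesenchyme genes to the left, and the mitotic genes lie close to 0.

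The Hox genes, which record position along the body and limb axes, separated by cluster. In the HoxD cluster none of 9 genes was higher and 6 were lower, among them all 5 from *Hoxd9* to *Hoxd13*. *Hoxd11* was at 27.4 and 25.98 CPM in the members and 203 and 206 CPM in the other cells (log2 fold change -2.77 ± 0.09, adjusted p = 6.15e-36), and *Hoxd13* at 26.7 and 8.80 CPM against 127 and 111 CPM. The summed HoxD level was 114 and 86.8 CPM in the members and 587 and 551 CPM elsewhere. In the HoxC cluster 3 of 7 genes were lower and 1 higher, or 4 and 1 with total UMIs alone. *Hoxc6* was at 3.43 and 2.51 CPM against 25.8 and 29.5 CPM, whereas *Hoxc13*, a gene of low level, was called higher (3.05 and 1.26 against 0.390 and 0.818 CPM, 2.05). The summed HoxC level was 9.91 and 5.45 CPM in the members and 45.2 and 51.1 CPM elsewhere. The HoxA cluster, by contrast, summed to 543 and 507 CPM in the members and to 544 and 538 CPM elsewhere.

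Within the HoxA cluster 7 of 11 genes were higher and 2 lower, or 2 and 2 with all cells thinned to 3000 UMIs. The 7 included *Hoxa2*, *Hoxa3* and *Hoxa4* at the anterior end, each at 16.3 CPM or less, and *Hoxa7* at 64.8 and 66.2 CPM against 37.2 and 33.7 CPM (1.05 ± 0.10). *Hoxa11*, a gene of the middle segment of the limb, was at 53.7 and 44.0 CPM against 38.6 and 33.8 CPM. *Hoxa13*, a gene of the digit region, was lower, at 4.57 and 5.45 CPM against 14.5 and 14.3 CPM, and so was *Hoxa10*. In the HoxB cluster 1 of 8 was higher, *Hoxb6* at 9.91 and 12.99 CPM against 4.11 and 5.60 CPM, and 3 were lower. With DESeq2 the counts of higher and lower HoxB genes were 1 and 0, and after thinning 0 and 0. The transcripts of neighbouring Hox genes overlap, so counts of single genes within a cluster are uncertain.

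**Figure D4:**
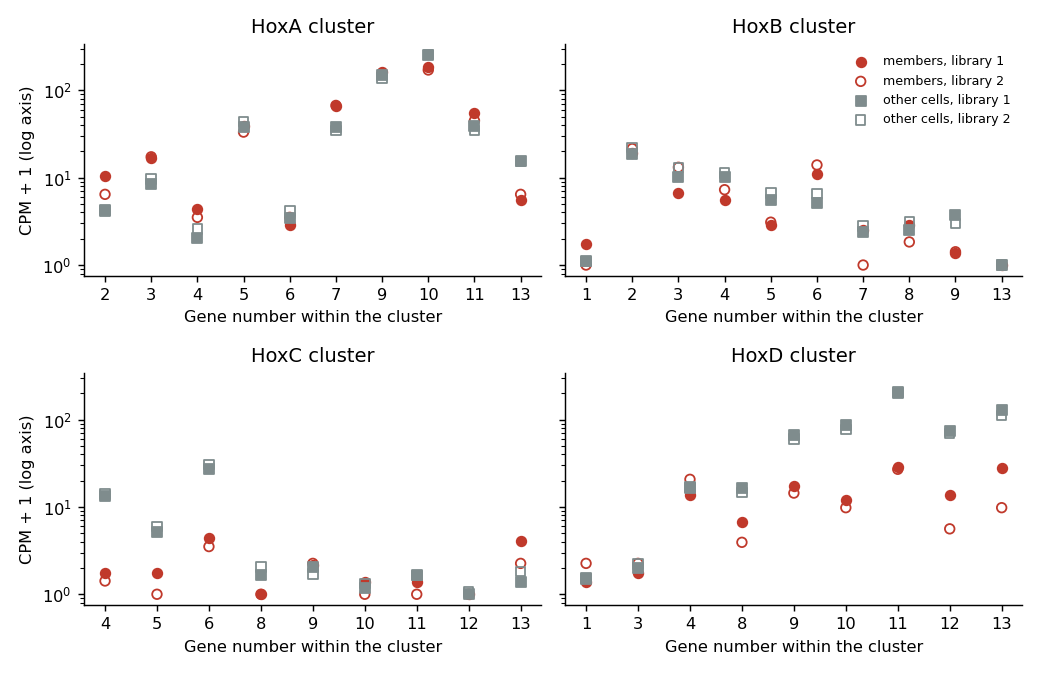
CPM + 1 on a log axis for genes of the 4 Hox clusters, ordered by gene number within the cluster (horizontal axis). Red circles are members and grey squares other cells, filled for library 1 and open for library 2. In the HoxD panel the squares stand above the circles from gene 8 to gene 13, whereas in the HoxA panel the symbols lie close together for most genes.

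Signalling genes differed by pathway. In the Notch pathway, which holds muscle progenitors in an undifferentiated state, 5 of 18 genes were higher and 4 lower, or 5 and 5 with total UMIs alone. The effector *Heyl* was at 13.3 and 10.9 CPM in the members and 0.924 and 0.920 CPM elsewhere (3.87 ± 0.33), and *Hey1* was at 148 and 158 CPM against 49.7 and 45.96 CPM. *Lfng*, which modifies Notch receptors, was at 32.4 and 27.2 CPM against 3.10 and 2.94 CPM, and *Hes6* at 152 and 127 CPM against 41.0 and 33.0 CPM. *Notch3* was the receptor called higher (26.7 and 43.2 against 21.6 and 26.9 CPM). *Hes1* was lower (290 and 256 against 422 and 423 CPM), as were the ligand *Jag1* and the noncanonical ligand *Dlk1*. *Hey2*, the other gene called lower, had 0 UMIs in the members and 89 in the other cells. *Dll1* was not called.

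Genes of the BMP and activin axis were higher in 9 of 16 cases and lower in 2, or 8 and 4 with total UMIs alone. *Fst*, which encodes the myostatin and activin antagonist follistatin, was at 149 and 154 CPM against 18.1 and 14.9 CPM (3.37 ± 0.09, adjusted p = 7.12e-41). *Nog*, a BMP antagonist, was at 82.7 and 89.7 CPM against 21.2 and 23.0 CPM, the receptor *Bmpr1b* at 34.7 and 44.4 CPM against 12.3 and 12.3 CPM, and the inhibitory *Smad6* at 109 and 113 CPM against 48.0 and 51.7 CPM. *Id1* was lower, at 1311 and 1510 CPM against 2032 and 2556 CPM, while *Id2* and *Id3* were higher by 0.54 and 0.47 on the log2 scale. *Mstn*, which encodes myostatin, was at 0.381 and 0.419 CPM and was not called.

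FGF reception and feedback genes were lower in 8 of 14 cases and higher in 2. *Fgfr4*, the FGF receptor of muscle progenitors, was at 5.72 and 7.54 CPM in the members and 1.01 and 0.981 CPM elsewhere (2.89 ± 0.40). *Fgfr1* and *Fgfr2* were lower. The feedback genes *Dusp6* (44.6 and 28.5 against 189 and 179 CPM) and *Spry4* (3.43 and 3.35 against 23.7 and 25.1 CPM) were lower as well. In the retinoic acid list 6 of 10 were lower and 3 higher, with the binding protein *Crabp1* at 16.8 and 27.7 CPM against 137 and 151 CPM. In the IGF list 5 of 10 were higher, led by the binding proteins *Igfbp3* (87.3 and 85.1 against 21.3 and 21.2 CPM) and *Igfbp2* (294 and 300 against 121 and 138 CPM), and 1 was lower. In hedgehog reception 4 of 10 were higher, with the coreceptor *Boc* at 38.5 and 40.7 CPM against 18.5 and 19.2 CPM, and 1 was lower. The corresponding counts of higher and lower genes with total UMIs alone were 1 and 10 for FGF, 2 and 6 for retinoic acid, 3 and 2 for IGF and 4 and 2 for hedgehog.

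Adhesion genes followed the receptors in going both ways, with 6 of 16 higher and 3 lower, or 6 and 6 with total UMIs alone. *Itga4*, an integrin subunit that binds VCAM1 and fibronectin, was at 64.4 and 62.4 CPM in the members against 5.18 and 3.91 CPM (3.97 ± 0.14), and *Vcam1* was at 13.3 and 14.2 CPM against 57.0 and 55.5 CPM. *Cdh15*, the muscle cadherin, counted with the differentiation genes below, was at 43.5 and 43.6 CPM against 5.03 and 3.70 CPM. *Ncam1* and *Cdh2* were higher by 0.78 and 0.65 on the log2 scale, and the mesenchymal cadherin *Cdh11* was lower at -1.24.

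Of 20 mitotic genes, none was higher in the members than in the rest of the limb and 5 were lower, with a median log2 fold change of -0.11. The number lower was 18 with total UMIs alone and 10 with a minimum of 5000 UMIs. It was 1 after thinning, 1 without the block and 0 with DESeq2. *Top2a* was at 510 and 521 CPM in the members and 601 and 595 CPM elsewhere (-0.05 ± 0.03, adjusted p = 0.254), and *Mki67* at 109 and 97.6 CPM against 148 and 128 CPM. With each cell thinned to 3000 UMIs, 81.4% and 80.6% of members had 3 or more of the 20 genes, against 71.1% and 70.7% of the other cells, a difference of 10.1 ± 0.238 percentage points (SD, n = 2). At full depth the shares were 94.5% and 97.3% against 83.7% and 83.5%. The summed level of the 20 genes ran the other way, at 3101 and 3005 CPM in the members and 3673 and 3524 CPM in the other cells, so no order between them is read from these shares. Of 18 S phase genes, 9 were higher and 2 lower, or 5 and 4 with total UMIs alone. Their summed level was 3238 and 2775 CPM in the members and 3268 and 3005 CPM in the other cells. No order between the groups is read from these calls. *Cdc6* (89.2 and 71.2 against 50.7 and 43.7 CPM, 0.93 ± 0.09) and *Ccne2* (75.1 and 56.2 against 43.6 and 35.7 CPM, 0.89 ± 0.10), genes of the entry into S phase, differed most. *Mcm3* and *Mcm6* were among the 9, but their log2 ratios of CPM in whole 2 alone were -0.17 and -0.08.

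Among 12 genes of cell cycle exit, 4 were higher and 4 lower. *Cdkn1a*, which encodes the inhibitor p21, was at 185 and 139 CPM in the members and 31.7 and 24.6 CPM elsewhere (2.69 ± 0.07, adjusted p = 1.66e-39). *Cdkn1c*, the p57 gene, was abundant in both, at 1684 and 1503 CPM against 1158 and 1056 CPM (0.69 ± 0.02). *Gadd45g* and *Ccnd3* were higher, and *Cdkn1b*, *Cdkn2d*, *Btg1* and *Btg2* were lower.

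Contractile and differentiation genes were compared with the other cells first, which include the *Myog*-positive cells. Of 30 tested, 9 were higher in the members and 3 lower, or 9 and 5 with total UMIs alone. *Tnnt1*, a slow troponin T gene, was at 98.7 and 77.1 CPM against 12.2 and 9.04 CPM (3.21 ± 0.11), and *Myl1*, a myosin light chain gene, at 26.3 and 15.5 CPM against 6.94 and 4.19 CPM. *Vgll2*, a muscle cofactor of TEAD proteins, was at 24.4 and 14.7 CPM against 2.83 and 2.35 CPM, and *Rapsn*, which clusters acetylcholine receptors, at 7.62 and 10.5 CPM against 1.03 and 0.879 CPM. *Actc1*, the cardiac actin that embryonic muscle uses, was lower at 7.24 and 6.71 CPM against 21.3 and 16.03 CPM. The 87 and 74 cells with a *Myog* UMI and 2 or more rule markers were then taken out of the other cells. In that setting 13 of 28 were higher and none lower, and the log2 fold change of *Actc1* went from -1.26 to -0.23 and was no longer called. Each library held 158 cells with a *Myog* UMI, and those with fewer than 2 rule markers stayed among the other cells.

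The variation among the members was examined by splitting them on *Myf5* and *Myod1*. There were 167 and 148 members with a UMI of either and 32 and 38 with 0 UMIs of both. Of 8122 genes tested outside the rule, 23 (0.283%) were called, 19 (0.234%) higher and 4 (0.0492%) lower in the positive members. *Acta2*, the smooth muscle actin that early muscle cells also use, was at 158 and 142 CPM in the positive members and 57.0 and 26.1 CPM in the negative (log2 fold change 1.82 ± 0.21, adjusted p = 1.77e-14). *Nrk*, a kinase gene, was at 140 and 134 CPM against 50.9 and 41.4 CPM (1.55 ± 0.21), and *Tnnt1* at 112 and 88.7 CPM against 42.8 and 28.3 CPM (1.47 ± 0.24, adjusted p = 1.97e-06). *Nexn*, an actin-binding gene, and *Cep41* and *Tppp3*, genes of microtubules, were higher by 1.12, 1.22 and 1.06, and with the members thinned and split again, as described below, the value of *Tppp3* was -0.036. *Pdgfa* was at 278 and 254 CPM against 153 and 157 CPM. For each of these genes both values of the positive members lay above both of the negative.

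The 4 genes lower in the positive members included *Hoxd11* (21.1 and 22.3 against 55.0 and 41.4 CPM, -1.17 ± 0.29, adjusted p = 0.0257), *Msx1*, a homeobox gene of undifferentiated mesenchyme (233 and 200 against 310 and 292 CPM, -0.49 ± 0.11, adjusted p = 0.0103) and *Ankrd10*. Neither edgeR nor DESeq2 called any of 12 premyogenic transcription factors, 9 progenitor markers outside the rule, 20 mitotic genes or 11 migration receptors tested. Of these, 3, 3, 4 and 1 had an unadjusted p under 0.05 in edgeR. Over all 8122 genes 586 had such a p. The log2 fold change was above 0 for 9 of the 9 markers and 11 of the 12 factors, lists that share genes. It was also above 0 for 13 of the 20 mitotic genes and 6 of the 11 receptors. Of 9 contractile and differentiation genes tested, all 9 were above 0 and 1 was called. Their full list summed to 309 and 255 CPM in the positive and 141 and 111 CPM in the negative members. By the rule, each negative member holds at least 2 of *Pax3*, *Lbx1* and *Msc*. *Met* was at 57.7 and 59.7 CPM in the positive and 63.1 and 41.4 CPM in the negative members. DESeq2 called 2 genes and the test without the block 6, all higher, so neither called *Hoxd11*, *Msx1* or *Ankrd10* lower. Thinning to 3000 UMIs with the split redrawn from the thinned counts changed the groups as well as the depth, to 98 and 86 positive and 101 and 100 negative members. In that setting 6 genes were called, of which 2 were among the 23, and 4 of the 23 had the opposite sign. With the cells of highest doublet score left out 9 were called. A UMI of *Myf5* or *Myod1* is also missed by chance in cells of this depth, so the negative members can include cells that carry either transcript.

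The most similar cells were the 87 and 74 cells with 2 or more of the 5 markers and at least 1 *Myog* UMI. Of 9010 genes tested between them and the members, 527 (5.85%) were called, 130 (1.44%) higher and 397 (4.41%) lower in the members. The *Myog*-positive cells were mixed. A cluster of 23 cells led by *Actc1*, *Ttn* and *Myl1* held 13 of them and no member. The sums below pool these 13 with the rest, so they are not the level of a typical *Myog*-positive cell. Muscle differentiation and contractile genes were lower in the members in 22 of 24 cases and higher in none. *Actc1* was at 7.24 and 6.71 CPM in the members and 498 and 438 CPM in the *Myog*-positive cells (log2 fold change -6.08 ± 0.14). *Tnnc1*, the slow troponin C gene, was at 0.762 and 0.838 CPM against 70.2 and 44.3 CPM (-6.09 ± 0.38, adjusted p = 1.55e-53), and *Ttn*, which encodes titin, at 14.1 and 9.22 CPM against 376 and 301 CPM (-4.87 ± 0.14). *Mef2c* was at 6.10 and 4.61 CPM against 140 and 80.4 CPM. *Stac3* and *Unc45b* had 0 UMIs in the members and were at least 15.9-fold and 14.2-fold lower, taking the floor of 3 UMIs over both libraries. *Tnnt1* differed less, with 98.7 and 77.1 CPM against 324 and 274 CPM. *Tnni2* and *Chrnb1* were not called (adjusted p = 0.0722 and 0.0973).

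**Figure D5:**
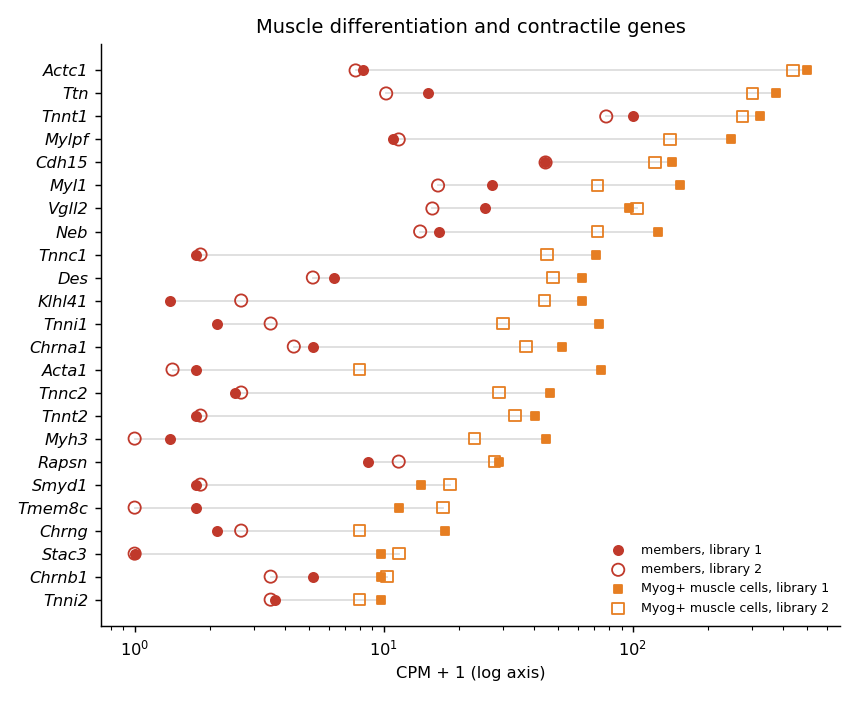
CPM + 1 on a log axis for the 24 muscle differentiation and contractile genes tested between members (red circles) and *Myog*-positive muscle cells (orange squares), filled for library 1 and open for library 2. Each gene has both circles left of both squares, from *Actc1* at 7.24 and 6.71 against 498 and 438 CPM to *Tnni2* at 2.67 and 2.51 against 8.78 and 6.99 CPM, the latter not called.

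Of 11 genes of cell cycle exit tested, 5 were lower in the members than in the *Myog*-positive cells, none was higher and 6 were not called. *Cdkn1a* was at 185 and 139 CPM in the members and 437 and 353 CPM in the *Myog*-positive cells (-1.31 ± 0.08), and *Cdkn1c* at 1684 and 1503 CPM against 4493 and 4009 CPM (-1.44 ± 0.03). The 20 mitotic genes gave no call with edgeR or DESeq2 (4 at an unadjusted p under 0.05 in edgeR), and *Top2a* was at 510 and 521 CPM against 506 and 493 CPM. At 3000 UMIs per cell, 73.6% and 66.2% of *Myog*-positive cells had 3 or more of these genes, against 81.4% and 80.6% of members (difference of -7.84 and -14.4 points), and the 20 genes summed to 3058 and 2770 CPM against 3101 and 3005 CPM. *Dll1*, a Notch ligand, was at 2.67 and 1.26 CPM in the members against 15.8 and 12.8 CPM (-2.83 ± 0.51), and *Hes6*, *Lfng* and *Fgfr4* were lower in the members too. *Itga4* was lower in the members (64.4 and 62.4 against 137 and 128 CPM, -1.09 ± 0.13), while *Met* was not called (58.7 and 56.2 against 57.9 and 47.8 CPM). *Erbb3* was at 21.0 and 21.4 CPM against 48.3 and 61.8 CPM.

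The genes of largest fold change towards the members at 50 CPM or more were *Msx1* and *Msx2*, homeobox genes that hold mesenchymal and muscle precursor cells undifferentiated. *Msx1* was at 247 and 218 CPM in the members and 85.1 and 72.2 CPM in the *Myog*-positive cells (1.53 ± 0.12, adjusted p = 1.36e-36), and *Msx2* at 56.8 and 47.4 CPM against 21.9 and 16.3 CPM (1.40 ± 0.23). In the other cells of the limb *Msx1* was at 481 and 393 CPM, above the members. *Ebf1*, *Tnfaip6*, *Mecom* and *Mdfi*, an inhibitor of myogenic factors, followed with log2 fold changes of 1.05, 0.99, 0.95 and 0.95. Of 23 limb mesenchyme genes tested, *Msx1* and *Msx2* included, 5 were higher in the members than in the *Myog*-positive cells, 17 were not called and 1 was lower, *Tbx2* (8.004 and 8.80 against 24.6 and 16.3 CPM). *Twist2*, a repressor of myogenic factors, was at 39.3 and 39.8 CPM against 8.78 and 8.16 CPM (2.18 ± 0.31). *Prrx1* was at 117 and 128 CPM against 89.5 and 67.6 CPM. DESeq2 called 99 genes in this comparison, 6 higher and 93 lower, and the test without the block called 264.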

How the data were processed

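Single cells of E11.5 limbs were profiled with 10x 3′ v2 droplet libraries. The authors aligned reads to a modified mm10 genome with Cell Ranger count and deposited raw UMI counts per gene and barcode (28001 identifiers). The 6 sorted tdTomato+ libraries enter as a background only.

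Cells with 3000 or more UMIs (the study's limit) and at most 10% mitochondrial UMIs were kept, and members were chosen as stated above. Members, gene lists and tests were chosen with earlier results of these data known. Counts were summed per library and cell group and tested with edgeR 4.0.16 (R 4.3.3; quasi-likelihood, TMM, filterByExpr, library as block, 1 residual degree of freedom, Benjamini-Hochberg 0.05). The block pairs groups of cells from the same library. The 6 rule genes were not tested. The text names the listed genes and, per comparison, the genes of largest log2 fold change in each direction (10 in the comparison with other cells, 6 in the others) among those called at 50 CPM or more and changed the same way in both libraries, without mitochondrial, haemoglobin, ribosomal protein, histone or Y-linked genes, Xist and Tsix. Genes below the filter were not tested (6130, 6684 and 6339 in the order of the text). Intervals are exact (Clopper-Pearson for shares), and a gene or share at 0 was given a limit of 3 counts of the total, which for a share is below the exact upper bound. Intervals and floors cover counting error only. The SE is the absolute log2 fold change divided by the square root of F.

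Clustering used scanpy 1.11.5 (2000 variable genes, 50 components, 25 neighbours, Leiden resolution 1). Scrublet called 1 and 4 doublets (0.018% and 0.070%), too few for a working call. Leaving out the highest 5% of scores, or members outside the main cluster, and scaling by total UMIs alone were alternatives added after the data were seen. DESeq2 1.42.0, other scaling, filters, thinning to 3000 UMIs and no block were planned. The scripts were tested on simulated data. Gene coordinates are from GENCODE (379 of 380 genes matched) and the promoter from RefSeq, both on GRCm38. Some genes that entered the counts and medians of lists are not reported here.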

Additional observations from a re-analysis of the deposited data

Results flagged for a closer look

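The sorted E16.5 proximal library, which enters no comparison above, held 14 cells that met the same rule among 11109 (0.126%, exact 95% interval 0.0689% to 0.211%). They carried 109 UMIs of *Msc*, 52 of *Myf5*, 15 of *Myod1*, 7 of *Lbx1* and 2 of *Pax3*, whereas *Pax3* had more UMIs than any other rule marker in the members of both whole limb libraries. Among the other sorted libraries, 3 such cells were found at E11.5 and 1 at E12.5, and none of the 6123 cells at E13.5, 8381 at E14.5 and 8447 of the distal E16.5 sample met the rule, where 3 counts of the total would be shares of 0.0490%, 0.0358% and 0.0355% and the exact 95% upper bounds are 0.0602%, 0.0440% and 0.0437%. The sort was for tdTomato, the E14.5 and E16.5 libraries were made with a later kit, each sorted group is 1 library, and the difference was not tested.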

How the results depend on the processing

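Members against other cells gave 4311 calls, and 2161 with DESeq2 (1402 higher, 759 lower), 1814 with cells thinned to 3000 UMIs and 3244 without the replicate block. Of the named genes of that comparison 206 were called, and 135 after thinning. The split of the members on *Myf5* and *Myod1* gave 23 calls, and 2 with DESeq2, 6 without the replicate block, 6 after thinning, which also redrew the groups (2 of the 6 shared), and 9 without the highest doublet scores. Members against *Myog*-positive cells gave 527 calls, and 99 with DESeq2, 264 without the block, 149 after thinning and 209 when at least 3 rule markers were required. The share of members, 3.46%, was 3.72% with a minimum of 5000 UMIs, 2.46% with at least 3 markers and 1.86% after thinning, and 3.27% to 3.64% with either library left out. The mitotic difference, 10.1 points, was 6.85 with a minimum of 5000 UMIs, 12.2 with at least 3 markers, 10.4 within the main cluster, 12.3 unthinned, 8.51 with at least 2 mitotic genes and 5.85 with at least 5, and 9.92 to 10.3 with either library left out. Of 5188 alternative fold changes over 352 results, 7 had the sign opposite to a main call. Changes of sign in genes without a main call were not counted. With total UMIs alone they were *Mcm3* (-0.031) and *Mcm6* (-0.0068). After thinning they were *Gab1* (-0.024), *Gins2* (-0.19) and, within the members, *Tppp3* (-0.036). With either library left out *Mcm3* ran from -0.169 to 0.079 and *Mcm6* from -0.078 to 0.050, with the negative values in whole 2. Those values are log2 ratios of CPM without TMM scaling, over which the fitted values lie a median of 0.15 higher. The causes were not tested, except that thinning leaves fewer genes to test. With either library left out no residual degree of freedom remains, so those values carry no test. A member group of 385 cells limits what low genes can show.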
